A study of Homo sapiens with 5 samples.

Results

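The genes described here are 57 protein-coding genes of the early secretory pathway, of 60651 genes listed in the count files. They were chosen by symbol: the TMED genes, the SEC genes whose symbol goes on with a digit, the coatomer genes COPA, COPB, COPE, COPG and COPZ, the SRP genes and the SSR genes. A further 15 genes whose symbols match are pseudogenes or noncoding and were left out. The families were proposed after the genes called in the comparison below had been seen, so every count of called members is a description of the values that chose them and supports nothing further. RNA came from COLO 320DM, a human colorectal adenocarcinoma line. Each of 5 libraries was made after transfection of a different siRNA: siIDT, sino4 and siSMPLT, taken as the USP17-targeting duplexes because the series names siNT and siL2 as its non-silencing controls. Each siRNA has 1 library and the labels name no separate cultures, so the spread between libraries includes the effect of each siRNA's own sequence and may be technical. No dose, time or transfection reagent is given in the sources used here.

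Proteins bound for the cell surface, the lysosome or the medium enter the endoplasmic reticulum (ER) while they are made. The signal recognition particle (SRP, built from SRP genes and an RNA) binds the signal peptide as it leaves the ribosome and brings the ribosome to the SEC61 channel. The translocon-associated protein complex (SSR genes) sits beside that channel, and signal peptidase (SEC11 genes) removes the signal peptide. Vesicles coated with COPII (SEC13, SEC16, SEC23, SEC24 and SEC31 genes) then carry cargo towards the Golgi, vesicles coated with COPI (COP genes) bring proteins back, and TMED proteins cycle between both compartments as receptors for selected cargo. Part of this machinery is under transcriptional control by ER stress factors such as XBP1, ATF6 and the CREB3 family. The 57 genes were put into 9 functional groups. The 6 SEC14-like genes share the letters of the rule but encode lipid transfer proteins that belong to no coat or channel, so the name does not hold for them.

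Sequence near the start site is shown first because it separates the members independently of their expression. RefSeq promoters (GRCh38.p14, 250 bases before to 50 bases after the start) were given for 54 of the 57 genes. Some genes have several start sites (35116 promoters for 27305 genes), and a gene counts as a holder if any of its promoters matches. The 8-base motif TGACGTGG, bound by XBP1, ATF6 and related factors, was searched on both strands. It occurred in 11 of the 54 members (20.4%), against 253 of the 27305 genes in the table (0.927%) and 119 of 10238 tested coding genes (1.16%). Members that hold it are COPA, COPB1 and COPB2 of COPI, SEC16A, SEC16B, SEC23A and SEC24A of COPII, SSR3, SSR4, SEC62 and SRP19. Each site is printed with 16 bases on either side, 5′ to 3′ on the gene's strand. The motif is in capitals and reads CCACGTCA where it lies on the opposite strand.

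COPA (chr1:160343222-160343261, minus strand): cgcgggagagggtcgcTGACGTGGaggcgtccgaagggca
SEC16B (chr1:177984292-177984331, minus strand): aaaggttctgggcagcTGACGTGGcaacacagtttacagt
COPB2 (chr3:139389820-139389859, minus strand): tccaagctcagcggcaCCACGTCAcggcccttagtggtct
COPB2 (chr3:139389627-139389666, minus strand): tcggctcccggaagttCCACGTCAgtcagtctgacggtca
SSR3 (chr3:156554143-156554182, minus strand): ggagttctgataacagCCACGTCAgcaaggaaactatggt
SEC62 (chr3:169966774-169966813, plus strand): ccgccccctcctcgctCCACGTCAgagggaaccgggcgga
SRP19 (chr5:112861159-112861198, plus strand): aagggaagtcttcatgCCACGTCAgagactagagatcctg
SEC24A (chr5:134648590-134648629, plus strand): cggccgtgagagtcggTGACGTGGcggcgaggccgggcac
SEC16A (chr9:136484702-136484741, minus strand): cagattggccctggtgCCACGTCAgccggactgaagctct
COPB1 (chr11:14499836-14499875, minus strand): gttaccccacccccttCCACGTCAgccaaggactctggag
SEC23A (chr14:39103216-39103255, minus strand): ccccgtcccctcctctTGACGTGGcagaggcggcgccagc
SSR4 (chrX:153794523-153794562, plus strand): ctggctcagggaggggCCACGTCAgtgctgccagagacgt

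Positions are counted from the RefSeq start of the promoter that matched, which need not be the outermost start of the gene. In COPA the motif began 5 bases after that start, in SEC62 17 bases before it, in SSR3 41 bases before it and in COPB1 48 bases before it. COPB2 holds 2 copies. No TMED promoter in the table held the motif. No member held the longer ER stress elements ERSE or ERSE-II, which occur in 25 and 19 genes of the table, or TGACGTCA, the cAMP response element, found in 2.25% of genes. The shorter core CCACG was present in 45 of 54 members (83.3%), against 57.2% of tested coding genes. Every TGACGTGG site contains this core on one of its strands. A match is a description of these letters and not of binding.

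Reads in genes numbered 31704821 to 36276143 per library, and levels are given as CPM, counts relative to the reads in genes of each library after scaling by the trimmed mean of M values. Where no read was seen, up to 3 reads (0.0827 to 0.0946 CPM by library) remain possible from counting error alone. The USP17L genes (26 coding genes in the annotation used) had 0 reads in every library, controls included. Their rounded expected counts from RSEM were 0 as well. The knockdown itself could therefore not be read from these data. Of the colon epithelium markers CDX2 was abundant (1652 CPM in the USP17 siRNA group and 2052 CPM in the controls), and was called lower, whereas EPCAM stood at 2.56 and 2.25 CPM and VIL1 was near 0. Summed over its 7 genes this list measured 1811 to 1870 CPM with USP17 siRNA and 2192 to 2269 CPM in the controls. CDX2 makes up nearly all of that difference. CDH17 was called higher. EPCAM (0.18) and KRT20 (0.77) had positive log2 fold changes, and KRT8 (-0.21) and KRT18 (-0.14) negative ones, none of these 4 called. The part of CDX2 in the results below was not tested. The summed markers of leukocytes were 46.1 to 50.6 CPM with USP17 siRNA and 43.2 to 52.9 CPM in the controls, nearly all from PTPRC, and CD3E was at or near 0. The fibroblast markers summed to 42.6 to 56 and 51.5 to 59.5 CPM, and the endothelial ones to at most 0.321 CPM. No marker outside the colon list was called.

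The comparison asks what changed with the USP17-targeting siRNAs relative to the controls. With USP17 siRNA 13 members were called lower (adjusted p under 0.05 in edgeR's quasi-likelihood test over all genes), and 0 were called higher. Filtering on low counts left 50 of the 57, so the 13 are 26% of those tested. Across all 16341 genes tested, 5.82% were called lower and 4.64% higher. The lower members were SRP72, SEC61A1, SEC61B, SSR1, SSR2, SEC23IP, SEC24D, COPZ1, TMED2, TMED4, TMED5, TMED9 and TMED10. Every change was small, with falls of 15.9% to 37.7%, and no tested member changed by as much as 2-fold. At an unadjusted p under 0.05, 20 members were lower and 1, COPA, higher, against 2403 and 2315 of all 16341 genes. DESeq2's Wald test called 16 lower and limma-voom 13, and neither called any higher. Over all genes DESeq2's Wald test called 1318 lower and 1024 higher, and limma-voom 927 and 749. The median log2 fold change of the 50 members was -0.16, against 0.01 over all genes tested. Members are well-expressed genes, and among genes with a mean CPM of at least 10 the share called lower was 8.45% (27.1% of the 48 members at that level). In bulk RNA, fewer transcripts per cell and a change in the mix of cells cannot be told apart. The count of 13 depends on which libraries enter. So does the count over all genes, which went from 1710 to 349, 130 and 1041 without siIDT, sino4 and siSMPLT. Of the members, 0 were called without sino4. At an unadjusted p under 0.05, 16 of them were then lower and 0 higher, against 1584 and 1525 of all 16191 genes. Without siIDT 1 member (TMED9) was called, and without siSMPLT 7 (6 of the 13 and SEC14L1). Without siL2 14 were called, 9 of them among the 13, and without siNT 17, with 12 of the 13. Each of these fits drops 1 library, and the counts still differ with the library dropped. How much of the lower counts goes with having fewer libraries was not tested.

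By library, 26 of the 50 tested members lay below both controls in all 3 USP17 siRNA libraries and 5 lay above both, while 22.6% and 23.3% of all genes tested did so. Those 26 include all 13 called members and 13 that were not called. The siIDT library was the lowest of the 5 for 18 members (36%), against 21.1% of all genes, and siNT for 4 (8%, against 25.2%). Controls differed from each other by more than the group difference in 22 of the 50 members, and in 0 of the 13 called ones. A call already asks that the group difference be large against the spread within groups, which includes the gap between the controls. The 0 of 13, and the separation of the groups in called members, are therefore largely set by the call. For the gap between controls no share over all genes was computed.

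**Figure D1:**
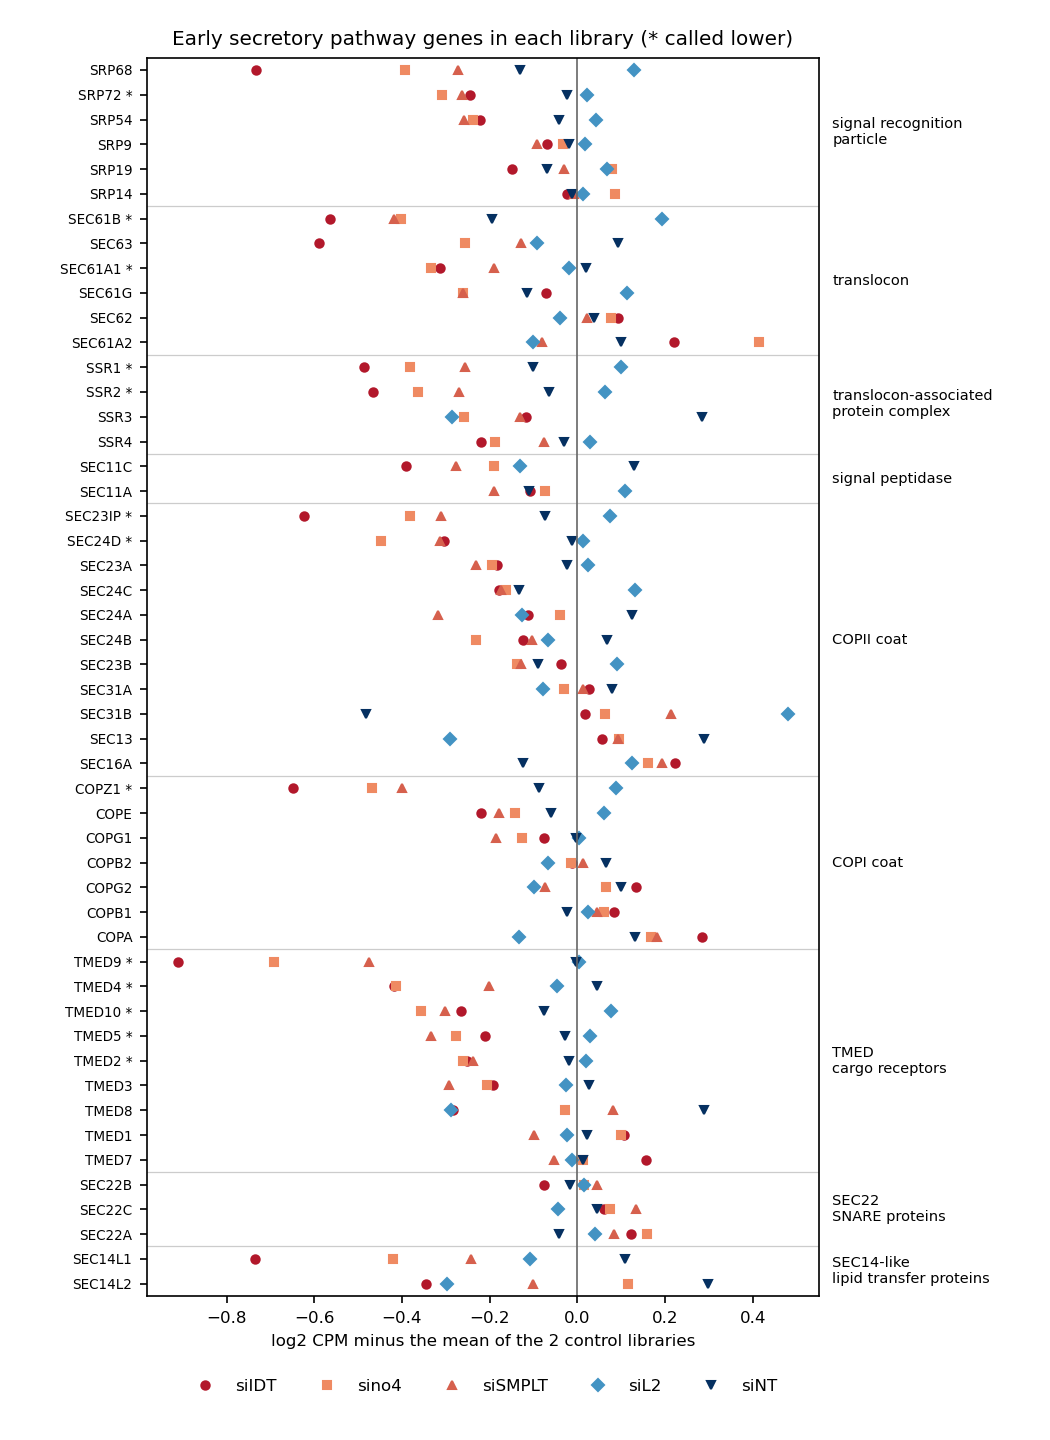
Each of the 50 tested members is a row, and each point is 1 library's log2 CPM minus the mean of the 2 controls, with groups separated by lines and an asterisk for the 13 called members. The USP17 siRNA points of called members lie left of both controls, farthest for TMED9 in siIDT. Of the 7 COPI rows 3 lie wholly left of both controls, 2 wholly right and 2 overlap them, and of the 3 SEC22 rows 2 lie right and 1 overlaps.

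Cargo receptors of the TMED family had the highest share of called members, with 5 of 9 tested lower and a median log2 fold change of -0.25. TMED9, a p24-family cargo receptor, measured 40.1, 46.7 and 54.3 CPM in siIDT, sino4 and siSMPLT and 75.6 and 75.3 CPM in siL2 and siNT. Its controls were almost identical and all 3 USP17 siRNA libraries lay far below them, siIDT lowest. The log2 fold change was -0.68 ± 0.12 (SE), the largest fall of any member. In GENCODE 29 it is annotated at chr5:177592158-177596124 (GRCh38).

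TMED2 and TMED10, which pair with each other in p24 complexes and are the most abundant of the family, shifted less but evenly. TMED2 measured 426, 424 and 430.4 CPM with USP17 siRNA and 515 and 501 CPM in siL2 and siNT (-0.25 ± 0.06, SE). TMED10 measured 386, 362 and 377 CPM against 489 and 439.7 CPM (-0.31 ± 0.07). In both genes the groups were separate, and the 3 USP17 siRNA libraries had SDs of 3.32 CPM for TMED2 and 12 CPM for TMED10. TMED5 (199, 191 and 183 against 235 and 226 CPM) and TMED4 (70.8, 71 and 82.2 against 91.6 and 97.6 CPM) were lower by 0.27 and 0.34 on the log2 scale. The calls of TMED4 and TMED5 were lost without siIDT, without sino4 and with every gene that had a read kept. TMED2 and TMED10 lost theirs without siIDT, without sino4 and without siSMPLT. TMED4 also lost its call with RSEM counts and without siNT, and TMED5 without siSMPLT and without siL2.

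The other tested TMED genes were not called. TMED3 lay below both controls in every USP17 siRNA library (log2 fold change -0.23), while TMED1 and TMED7 stood at 0.04 each. TMED8 measured 67.9 CPM in siL2 and 101 CPM in siNT, and the USP17 siRNA libraries fell between these. TMED6 was at or below 2 reads in every library and was not tested.

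At the translocon, the channel subunits SEC61A1 and SEC61B were lower. SEC61A1, the pore-forming alpha subunit, measured 423, 417 and 461 CPM with USP17 siRNA against 518 and 532 CPM (log2 fold change -0.28 ± 0.07, SE). SEC61B, the small beta subunit, measured 71.3, 79.9 and 79 CPM against 121 and 92.3 CPM (-0.47 ± 0.12). The groups did not overlap in either gene, but the controls of SEC61B were 0.39 apart on the log2 scale, nearly as far as the groups. Without siL2 its value was -0.27 and it was no longer called, nor was it without siIDT, without sino4 or without siSMPLT. The gamma subunit SEC61G (-0.20) was not called, and its siIDT library, at 28.4 CPM, lay above siNT at 27.6 CPM. SEC63, a co-chaperone membrane protein of the channel, spread widely, at 127, 160.4 and 175 CPM against 179.6 and 204 CPM. It lay below both controls in every USP17 siRNA library (-0.31) and was not called. SEC62 (0.06) and the minor alpha paralog SEC61A2 (0.20) had positive values within the spread between libraries.

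All 4 genes of the translocon-associated protein complex had negative fold changes (median -0.28), and SSR1 and SSR2 were called. SSR1, the alpha subunit, measured 547, 589 and 642 CPM in siIDT, sino4 and siSMPLT and 823 and 716 CPM in siL2 and siNT (-0.38 ± 0.09, SE). SSR2, the beta subunit, measured 176, 189 and 202 CPM against 254 and 233 CPM (-0.37 ± 0.08). In both genes siIDT was lowest and siL2 highest. Without siL2 SSR1 was no longer called (-0.27). SSR3, the gamma subunit and the most abundant member by CPM, went differently, at 1325, 1201 and 1311 CPM against 1179 CPM in siL2 and 1751 CPM in siNT. The USP17 siRNA libraries thus lay between the controls, and the sign of the difference depends on which control is used: -0.45 and called lower without siL2, 0.12 and not called without siNT. SSR4 lay below both controls in all 3 libraries (-0.16) and was not called.

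In the signal recognition particle 1 of 6 genes was called. SRP72, which with SRP68 forms a heterodimer of the particle, measured 391, 374 and 387 CPM against 471 and 456 CPM (-0.27 ± 0.06, SE). Its call was lost without siIDT, without sino4 and without siSMPLT. SRP68 itself had the larger difference (-0.46 ± 0.13) but also the larger spread, at 148, 187 and 204 CPM against 269 and 225 CPM, and was not called. SRP54, the GTPase subunit that holds the signal peptide, measured 86.5, 85.6 and 84.4 CPM against 104 and 97.9 CPM (-0.24) and was not called either. DESeq2's Wald test called both. SRP9 and SRP14, the pair that pauses translation, stood at -0.06 and 0.02, and SRP19 at -0.03. Of the 2 signal peptidase subunits, 0 were called by edgeR, DESeq2's Wald test or limma-voom, and 1, SEC11C (-0.29), was lower at an unadjusted p under 0.05 in edgeR. SEC11A, the more abundant, measured 105, 108 and 99.5 CPM against 122 and 105 CPM, so that the groups overlapped.

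Among COPII genes 2 of 11 tested were called. SEC24D, a cargo-binding inner coat subunit, measured 85.3, 77.1 and 84.7 CPM against 106 and 104 CPM (-0.35 ± 0.08, SE). SEC23IP, which encodes a SEC23-binding protein of ER exit sites, measured 48.2, 57.1 and 60 CPM against 78.3 and 70.7 CPM (-0.44 ± 0.11), and lost its call with RSEM counts and without siL2. Both sets of libraries were separate from their controls, and both genes lost their calls without siIDT, without sino4 and without siSMPLT. SEC23A (-0.20), SEC24B (-0.15) and SEC24C (-0.18) also lay below both controls in every USP17 siRNA library without being called. The outer coat genes SEC13 (0.05) and SEC31A (0.00) and the exit-site scaffold SEC16A (0.19) did not share this. Without siL2 SEC16A (0.32) was called higher, and without siNT SEC13 (0.37). SEC31A, the most abundant of the group, measured 295, 284 and 292 CPM against 274 and 306 CPM, inside the range of its controls. SEC31B differed most between the controls, at 13.2 CPM in siL2 and 6.74 CPM in siNT, and was called higher (0.58) without siL2.

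Among COPI genes 1 of 7 tested was called, and the median of -0.01 was the nearest to 0 of the 9 groups. COPZ1, the zeta subunit of coatomer, measured 203, 229.6 and 241 CPM with USP17 siRNA against 338 and 299 CPM (-0.50 ± 0.09, SE), with no overlap. COPA, the alpha subunit of the same complex, lay on the other side, at 457, 422 and 425 CPM against 342 and 411 CPM (0.21 ± 0.09), and was not called. Its value rested on the control used: 0.08 without siL2, and 0.34 and called higher without siNT. COPB2, the beta-prime subunit and the most abundant COPI gene by CPM, measured 459.6, 459 and 468 CPM against 443 and 485 CPM. The beta subunit COPB1 stood at 0.06, COPG1 at -0.13, COPG2 at 0.04 and COPE at -0.18. Without siNT the COPI median turned to 0.04. COPZ1 therefore stood apart from the other tested COPI genes in these libraries, a difference that was not tested.

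**Figure D2:**
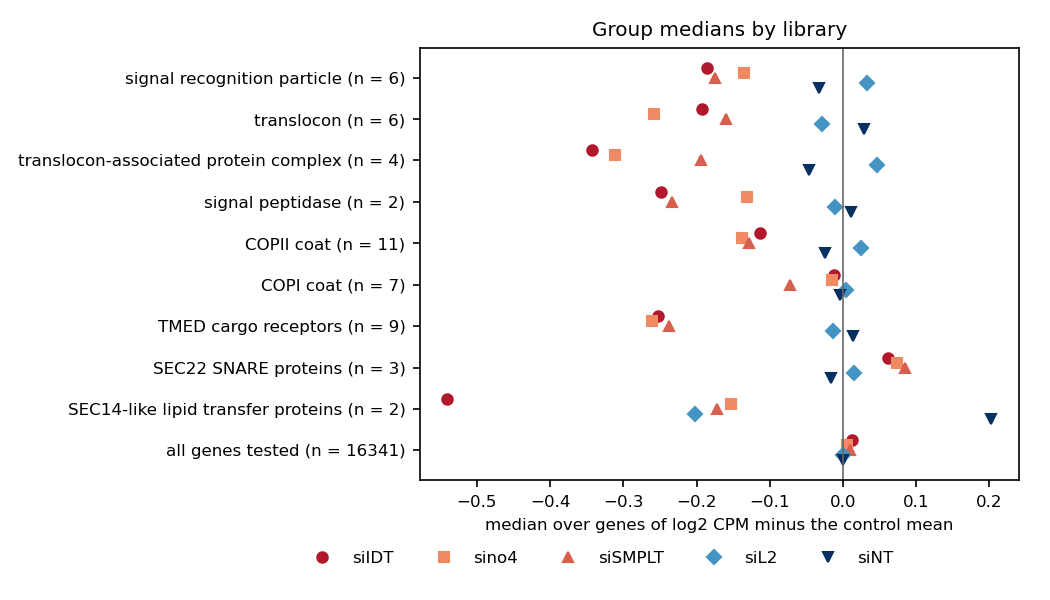
Points give, for each library, the median over a group's tested genes of log2 CPM minus the control mean, with the number of genes in brackets and all genes tested in the bottom row. The 3 USP17 siRNA medians are lowest for the translocon-associated and TMED groups among groups of 4 or more genes and lie near 0 for COPI.

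Of the 3 SEC22 genes, SEC22B encodes a SNARE protein that fuses ER and Golgi vesicles, a role not meant here for SEC22A and SEC22C. The group had 0 of 3 called in edgeR's test, DESeq2's Wald test or limma-voom. At an unadjusted p under 0.05 in edgeR there were also 0. SEC22C measured 65.6, 66.2 and 69 CPM against 61 and 64.9 CPM, and SEC22A also lay above both controls (0.12). SEC14L1 measured 87, 108 and 122 CPM against 134 and 156 CPM (-0.46 ± 0.14, SE) and was not called, although DESeq2's Wald test called it. SEC14L2 was near 1 CPM. Of the 7 members not tested, SEC16B, SEC14L3, SEC14L4 and SEC14L6 had 0 reads in all libraries, while COPZ2, SEC14L5 and TMED6 had a few.

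Levels per length (TPM from RSEM) spanned a wide range within each complex. SSR3 was the highest, at 728 ± 39.9 TPM with USP17 siRNA (SD, n = 3) and 866 ± 156 TPM in the controls (SD, n = 2), where SSR1, SSR2 and SSR4 stood at 392, 342 and 259 TPM. SRP9 (406 TPM in the controls) stood above SRP14 (262 TPM), SRP72 (221 TPM) and SRP54 (70.3 TPM). COPZ1 was the highest COPI gene at 389 ± 14.9 TPM in the controls, and at 296 ± 16.1 TPM with USP17 siRNA it stayed above COPB2 at 212 TPM. Within TMED genes, TMED2 (331 TPM in the controls) and TMED10 (228 TPM) were followed by TMED5 (102 TPM) and TMED9 (93.4 TPM). TMED5 exceeded TMED9 by 12.8 and 4.43 TPM in siL2 and siNT, and by 38.9, 25.4 and 15 TPM in siIDT, sino4 and siSMPLT. SEC22A, SEC22B and SEC22C, at 29.4 to 31.7 TPM in the controls, did not differ beyond their spread.

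**Figure D3:**
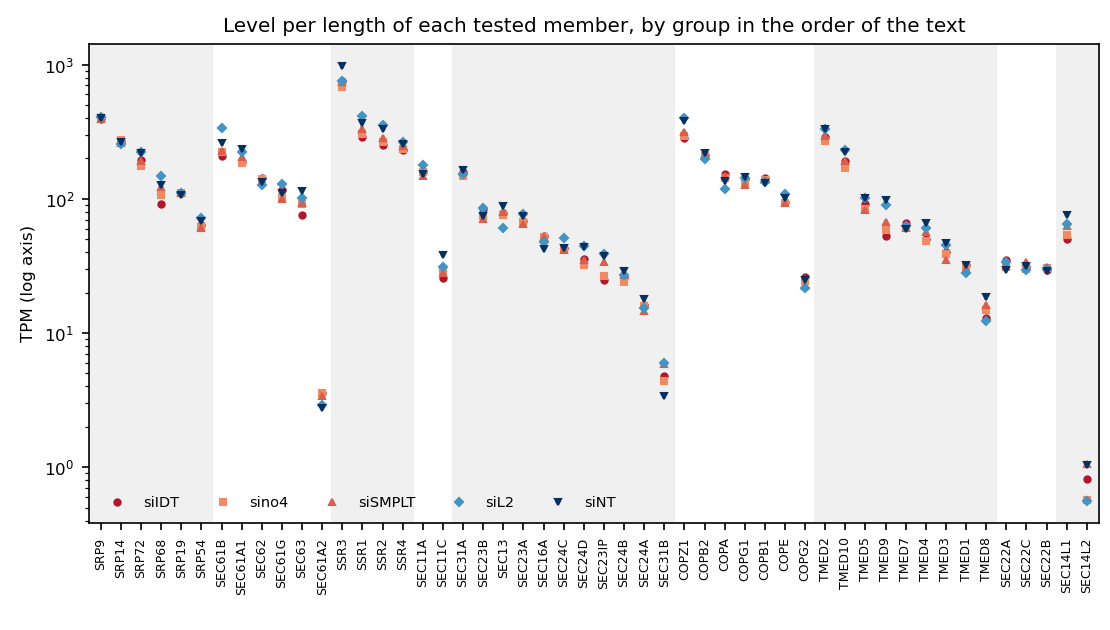
TPM on a log axis is plotted for every tested member in each library, by group in the order SRP, translocon, translocon-associated complex, signal peptidase, COPII, COPI, TMED, SEC22 and SEC14-like, from high to low. SSR3 is the highest, and SEC61A2, SEC31B and SEC14L2 are far below their relatives.

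Where several genes encode 1 subunit, their shares of summed TPM show how the transcripts divide among them. Protein was not measured, so which one is built into a complex is not shown. Shares within the TMED genes were taken in the same way, although these form a family of receptors and not 1 subunit. SEC61A1 made up 98.8% of SEC61 alpha TPM in the controls and 98.2% with USP17 siRNA, and SEC31A made up 97.1% and 96.8% of SEC31. The zeta subunit came almost wholly from COPZ1 (99.9% in the controls), and COPZ2 held at most 0.119% in any library. SEC23A and SEC23B contributed about equally (48.7% and 51.3% in the controls). SEC24D took 32.3% and 32.7% of SEC24 TPM in siL2 and siNT and 29.4%, 28.2% and 29.7% in siIDT, sino4 and siSMPLT, with no overlap. TMED9 took 9.27% and 9.99% of TMED TPM in the controls and 6.4%, 7.55% and 8.03% with USP17 siRNA. TMED7 took 6.46% and 6.1% in the controls and 8.03%, 7.92% and 7.31% with USP17 siRNA. TMED7 itself measured 62.8 TPM with USP17 siRNA and 60.9 TPM in the controls, while the summed TMED TPM was 811 and 970. Its larger share thus goes with the smaller sum. These shares come from the same libraries as the fold changes and add no independent evidence.

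Members that hold TGACGTGG at their start and members that do not were set side by side. None of the 10 called members with a promoter in the table holds it. The 10 tested holders had a median log2 fold change of -0.02, from -0.20 (SEC23A) to 0.21 (COPA), with 0 called in either direction by edgeR, DESeq2's Wald test or limma-voom and, in edgeR, 1 lower (SEC23A) and 1 higher (COPA) at an unadjusted p under 0.05. The 37 tested members with a promoter but no match had a median of -0.18, with 10 called lower. Over all tested coding genes the shares lay the other way: of the 119 tested coding genes that hold the motif 13.4% were called lower, against 7.24% of those without it, although their median fold changes were -0.03 and -0.01. Called members often hold the short core CCACG (9 of 10), as most members do. The promoters of SSR1 and COPZ1, called members with CCACG near the start, are given with the core on either strand in capitals. SSR1 holds 3 copies and COPZ1 holds 1.

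SSR1 (chr6:7313150-7313449, minus strand): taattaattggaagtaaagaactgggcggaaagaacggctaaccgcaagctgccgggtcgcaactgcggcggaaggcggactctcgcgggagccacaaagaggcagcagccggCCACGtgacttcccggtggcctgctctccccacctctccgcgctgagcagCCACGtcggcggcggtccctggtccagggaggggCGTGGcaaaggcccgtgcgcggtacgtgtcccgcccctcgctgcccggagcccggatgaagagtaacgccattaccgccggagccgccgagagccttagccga
COPZ1 (chr12:54324881-54325180, plus strand): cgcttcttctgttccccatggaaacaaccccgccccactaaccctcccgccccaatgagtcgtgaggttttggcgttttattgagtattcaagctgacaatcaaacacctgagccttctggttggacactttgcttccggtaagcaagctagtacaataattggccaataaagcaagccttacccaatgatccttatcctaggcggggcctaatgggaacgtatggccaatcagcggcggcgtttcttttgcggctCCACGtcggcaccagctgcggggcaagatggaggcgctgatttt

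**Figure D4:**
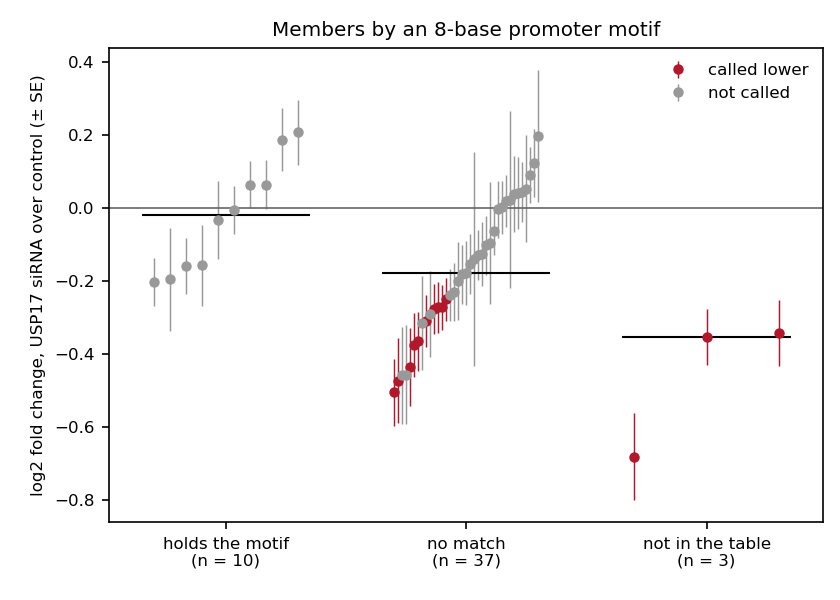
Log2 fold changes with SE are plotted for the 10 tested members that hold the 8-base motif, the 37 that do not and the 3 not in the promoter table, with a bar at each median. Called members lie in the second and the third column, and the holders are spread around 0.

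The 3' untranslated regions were searched for ATCACTC and TCACTCA, 7-mers picked from earlier results of these same data. Of the 831 searched genes that hold ATCACTC 19.6% were called lower, against 6.41% of the others. Called higher were 39 of the 831 and 591 of the other 11486. The 7-mer was picked from these data, so the difference is a description and no independent evidence. From GENCODE 29 transcripts, 4 of the 50 tested members hold ATCACTC: TMED5, SEC24C, SEC23IP and TMED8. These are 8% of the members, against 6.75% of the 12317 genes searched. Each site is printed with 10 bases on either side and the 7-mer in capitals.

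TMED5: cttattgtacATCACTCtactttgcat
SEC24C: atgattgatgATCACTCcgtggataga
SEC23IP: aataatcaagATCACTCatatcccaac
TMED8: aactctcttcATCACTCagggttgaat

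TMED5 and SEC23IP were called lower, SEC24C (-0.18) and TMED8 (-0.10) were not. TCACTCA, which overlaps it, was found in 7 tested members (14%, against 10.3% of the genes searched): SEC22B, SEC62, SEC24A, SEC23IP, TMED8, SEC14L1 and SEC14L2. The 41 tested members that hold neither had a median log2 fold change of -0.16, with 11 called lower (26.8%), while 5.99% of all searched genes with neither were called lower. Among the 9 members that hold either, 2 were called and the median was -0.16, while 15.4% of all searched genes that hold either were called lower.

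Partner genes of the pathway that the naming rule does not take were examined in 8 lists of 108 genes. Of 105 tested, 12 were called lower and 0 higher, with a median log2 fold change of -0.12, where 5.82% of all genes tested and 8.45% of those with a mean CPM of at least 10 were called lower. At an unadjusted p under 0.05 in edgeR 34 were lower and 4 higher, against 2403 and 2315 of all 16341 genes. DESeq2's Wald test called 19 lower and 2 higher, against 1318 and 1024 of all genes, and limma-voom 12 and 0, against 927 and 749. Without siIDT, sino4 and siSMPLT the count called lower was 4, 1 (TRAPPC1) and 8. Of the 12, TRAPPC1 kept its call whichever library was left out. The lists were written with earlier results of these data known. ARF1, the small GTPase that recruits COPI, was lower among 9 COPI partners (-0.57, adjusted p 0.0257 in edgeR's test), at 263, 321 and 367 CPM against 478 and 459.8 CPM. Of 8 COPII partners 0 were called by edgeR, DESeq2's Wald test or limma-voom, and 1, TFG, which organises ER exit sites, was higher at an unadjusted p under 0.05 (0.19). Of 16 tested cargo and retrieval receptors 0 were called by edgeR or limma-voom and 3 lower by DESeq2's Wald test, while 7 were lower and 1 higher at an unadjusted p under 0.05 in edgeR, LMAN1 (-0.28, adjusted p 0.0502) and KDELR1 (-0.26, 0.0581) coming closest in edgeR's test.

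Among partners of targeting and translocation, HSPA5, the ER chaperone BiP (-0.40), and TRAM1, a membrane protein beside the channel (-0.29), were lower, 2 of 15. Of 12 oligosaccharyltransferase genes edgeR and limma-voom called 1 lower, DAD1 (-0.45), and DESeq2's Wald test 3. Over all genes tested edgeR called 5.82% lower, and 8.45% of those with a mean CPM of at least 10. The lists are short, and 1 of 12 is near the second share. Of 10 genes of the ER membrane protein complex edgeR and limma-voom called 2 lower, EMC2 (-0.37) and EMC1 (-0.31), and DESeq2's Wald test 4. Of 25 genes of ER-Golgi fusion and tethering edgeR called 3 lower and 0 higher, and DESeq2's Wald test 3 lower and 1 higher. At an unadjusted p under 0.05 in edgeR 5 were lower and 1 higher. TRAPPC1, a tethering complex subunit, measured 23.2, 24.3 and 25.2 CPM against 46.8 and 44.5 CPM (-0.91, adjusted p 0.00241 in edgeR's test), a larger fall than that of any member. GORASP2, a Golgi stacking protein, measured 85.4, 103 and 119 CPM against 175 and 157 CPM (-0.69, adjusted p 0.0173 in edgeR's test).

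Regulators of secretory genes were mixed, with 3 of 10 tested called lower, where 5.82% of all genes tested were called lower. ERN1, which encodes the ER stress sensor IRE1 that splices XBP1 mRNA, measured 66.6, 70.3 and 74.8 CPM against 99.9 and 115 CPM (-0.61, adjusted p 0.00953 in edgeR's test). CREB3L2, a membrane-bound transcription factor of secretory genes such as SEC23A, measured 113, 111 and 109 CPM against 173 and 155 CPM (-0.56, adjusted p 0.00658 in edgeR's test). XBP1 itself was lower by 0.50 on the log2 scale. Neither ATF6 (-0.01) nor ATF6B (0.26) was called by edgeR, while DESeq2's Wald test called ATF6B higher. Whether any of these moved the members was not tested.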

How the data were processed

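The submitters' processing notes name bcl2fastq 2.20, STAR 2.7.1a and RSEM 1.3.2 as tools and GRCh38 as the build, and per the labels' protocols the libraries were made from polyA-selected RNA. No source used here states the annotation release; identifiers were matched to GENCODE 29. The deposited count tables hold reads per gene, and the column of the gene's own strand, with 18.7 to 19.9 times the reads of the opposite strand, was used. The rows that name no gene held 22.8% to 24.4% of reads and were left out. The deposited RSEM tables hold expected counts, rounded here, and TPM, both as the authors computed them. STAR drops reads that map to several places or to overlapping genes: 5 tested members (SRP19, SEC22B, SRP9, SEC22A and COPE) had at least 1.4 times as many expected counts and are uncertain.

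Genes were kept by filterByExpr (minimum count 10, total 15), scaled by TMM, and the groups compared with the quasi-likelihood test of edgeR 4.0.16 in R 4.3.3, two-sided, with Benjamini-Hochberg adjustment over all genes at 0.05. Log2 CPM per library used a prior count of 2. The fit was tested on simulated data, whose planted changes were larger than those of every called member but TMED9. Recovery of smaller changes was not tested. Libraries with 3 USP17 siRNAs and 2 controls form the groups, and replicate numbers follow sample order and pair nothing. Called members had 1310 to 28185 reads per library. DESeq2 1.42.0, limma-voom (limma 3.58.1), other filters, RSEM counts, the unstranded column, an adjusted p of 0.10 and leaving out each library were tried. Members and lists were chosen with earlier results of these data known. Genes given in full were called members, at most 5 a group, and the most abundant member of a group, with up to 3 partner genes per list. Values per library of other members were added after they were seen.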

Additional observations from a re-analysis of the deposited data

How the results depend on the processing

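No paired analysis was possible because the labels give the libraries no shared numbers. Leaving out 1 library gave 0 to 17 called members (for the USP17 siRNAs 1, 0 and 7 on leaving out siIDT, sino4 or siSMPLT, and for the controls 14 on leaving out siL2 and 17 on leaving out siNT) and 130 to 2633 called genes in all. An adjusted p of 0.10 gave 3074 genes. With a lone control, its spread is assumed to be that of the USP17 siRNA libraries, and 2 members were then called higher: SEC16A and SEC31B without siL2, COPA and SEC13 without siNT. Every other alternative gave 11 to 18 called members, all lower. Of the partner genes 12 were called, and 1 to 19 when 1 library was left out, 21 with DESeq2's Wald test and 25 at an adjusted p of 0.10. RSEM counts lost the members SEC23IP and TMED4, and keeping every gene with at least 1 read lost TMED4 and TMED5. Group medians of log2 fold change ranged, when 1 library was left out, from -0.27 to -0.24 (TMED), -0.32 to -0.26 (translocon-associated), -0.25 to -0.17 (translocon), -0.19 to -0.12 (SRP), -0.19 to -0.091 (COPII), -0.25 to -0.19 (signal peptidase), -0.071 to 0.039 (COPI), 0.045 to 0.10 (SEC22) and -0.49 to -0.067 (SEC14-like). With RSEM the COPII median was -0.14. Signs turned in 13 uncalled members, in no called member, and, of the partner genes named, in ATF6, which was not called. The partner genes not named are left out of this statement. When 1 library was left out the ranges were -0.032 to 0.031 for SEC22B, -0.21 to 0.37 for SEC13, -0.071 to 0.062 for COPB2, -0.45 to 0.12 for SSR3, -0.076 to 0.081 for SEC31A, -0.10 to 0.037 for SRP19, -0.018 to 0.086 for TMED7, -0.054 to 0.14 for COPG2, -0.38 to 0.58 for SEC31B, -0.36 to 0.22 for TMED8, -0.014 to 0.040 for SRP14, -0.42 to 0.21 for SEC14L2 and -0.065 to 0.046 for ATF6. SEC22B was 0.024 with RSEM, SEC31A -0.0039 with DESeq2's size factors and with its Wald test and -0.0085 unstranded, TMED1 -0.0053 and SEC14L2 0.14 unstranded. The cause was not tested.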

Other observations

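Outside the members, few tested coding genes hold the full ER stress element in the promoter table. Of 16 that hold ERSE, 5 were called lower and 0 higher in edgeR's test (31.3% lower, median log2 fold change -0.25), and of 15 that hold ERSE-II 3 were lower and 0 higher (20%, median -0.14). Genes without ERSE were called lower in 7.28% of cases, and 530 of 10222 were called higher. Of genes without ERSE-II 7.30% were called lower, and 530 of 10223 higher. In sets of 16 and 15 genes, 0 called higher is near that share. These counts are small and were looked at because of the promoters of the members, none of which holds either element.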
